A study of Mus musculus with 2 samples.

Results

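Chemokines are small secreted proteins that direct the movement of leukocytes, and the genes described here are the mouse chemokines and their receptors as measured in white adipose tissue, where fat is stored. Members were chosen by name alone. A gene was kept if its only symbol in GEO's platform annotation was Ccl, Ccr, Cxcl, Cxcr or Ackr followed by a digit, or was Cx3cl1, Cx3cr1 or Xcl1. That gave 55 of the 19938 genes with a symbol of their own, 34 of them ligands and 21 receptors. The ligands were 19 CC chemokines, 13 CXC chemokines, Cx3cl1 and Xcl1, and the receptors were 17 that signal through G proteins and 4 atypical ones.

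The tissue came from mice of 24 weeks after 20 weeks of high-fat feeding. One Affymetrix Mouse Gene 1.0 ST array held RNA labelled Oma1_WT, from a control mouse, and 1 held RNA labelled Oma1_KO, from an Oma1-deficient mouse. Oma1 is a protease of the inner mitochondrial membrane. The sources used here do not give strain, sex, fat depot, the way the allele was disrupted or any pooling of animals. With 1 array per genotype no difference below has a replicate check, no test of the genotype was possible, and every statement compares these 2 arrays. In whole tissue, fewer cells of a type and less RNA per cell cannot be told apart.

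A chemokine binds a receptor with 7 membrane passes on a leukocyte, and the cell moves toward the higher concentration. CC and CXC chemokines are named for the spacing of their first cysteines, and many ligands share a receptor. Atypical receptors bind chemokines without classical G protein signalling and take them up or carry them across cells. In obese fat the Ccl2 and Ccr2 pair is known for drawing monocytes, which become macrophages in the tissue.

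Ccl2 and Ccl7, ligands of the monocyte axis, and their receptor Ccr2 read higher in the Oma1_KO array, as did the macrophage-expressed ligands Ccl3 and Ccl6. The scavenger-type ligand Cxcl16, the stromal ligand Cxcl14 and the fractalkine pair Cx3cl1 and Cx3cr1 were also higher. Cxcl9, an interferon gamma-induced ligand of Cxcr3, Ccl5 of T and NK cells, and Ackr1, an atypical receptor of venules and red cells, read lower. Cxcl10, another such ligand of Cxcr3, was only slightly lower (-0.15). Cxcl11, also a ligand of Cxcr3 but of low intensity, and Cxcr3 itself read higher. The differences were small. Ccl3 alone reached 1.5-fold higher, 1 of 55 genes, against a background of 1.15% of all 19938 genes. No member was at least 1.5-fold lower, where the background was 1.4%.

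All values are deposited intensities, in arbitrary units on a linear scale. Differences are log2(intensity + 1) in Oma1_KO minus the same in Oma1_WT, with the probe sets of a gene averaged. A gene is called bright here if its mean over both arrays reached 83, the median of all probe sets, and dim otherwise. Of the 55 members 28 were bright, all 28 of them in both arrays, so none passed through one array alone. Among the 27 dim members, 18 had a mean no higher than 47.1, the 95th percentile of 1190 olfactory and vomeronasal receptor genes, taken as genes that are mostly silent in fat (12 of them were bright). Those receptor genes had a median difference of 0.15, with 5th and 95th percentiles of -0.09 and 0.47, whereas the 11394 bright genes had a median of -0.06. Of the bright genes 36.6% were higher in Oma1_KO and 62.3% lower, and of the 8544 dim genes 60.7% were higher and 28.6% lower, so counts below are read against the share for the same brightness. Small positive differences of dim members therefore lie within what such genes showed. Over the 545 bright genes with 2 probe sets, the difference varied between the probe sets of a gene with an SD of 0.17. That SD is a yardstick for probes on the same RNA, not for a list's median, and holds nothing of the spread between mice. Any pairs of probe sets with identical values were kept in it and would make it smaller.

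The tissue label was checked against adipocyte markers, with all 7 adipocyte markers bright and the lowest of them at 4050 in Oma1_WT and 3721 in Oma1_KO. Of the 7, 6 were lower in Oma1_KO and 1 higher, where 62.3% of bright genes were lower. Their median was -0.12, within the SD, with sums of 47711 and 42616, and Adipoq read 6832 and 5255 (-0.38). The 6 measured liver markers, all bright, were all higher in Oma1_KO, where 36.6% of bright genes were. Their summed intensity was 3275 in Oma1_WT and 7818 in Oma1_KO, and their part in the values below was not tested. Oma1 itself read 187 and 155, from 1 probe set of unknown position relative to the disruption, so it does not check the label.

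**Figure D1:**
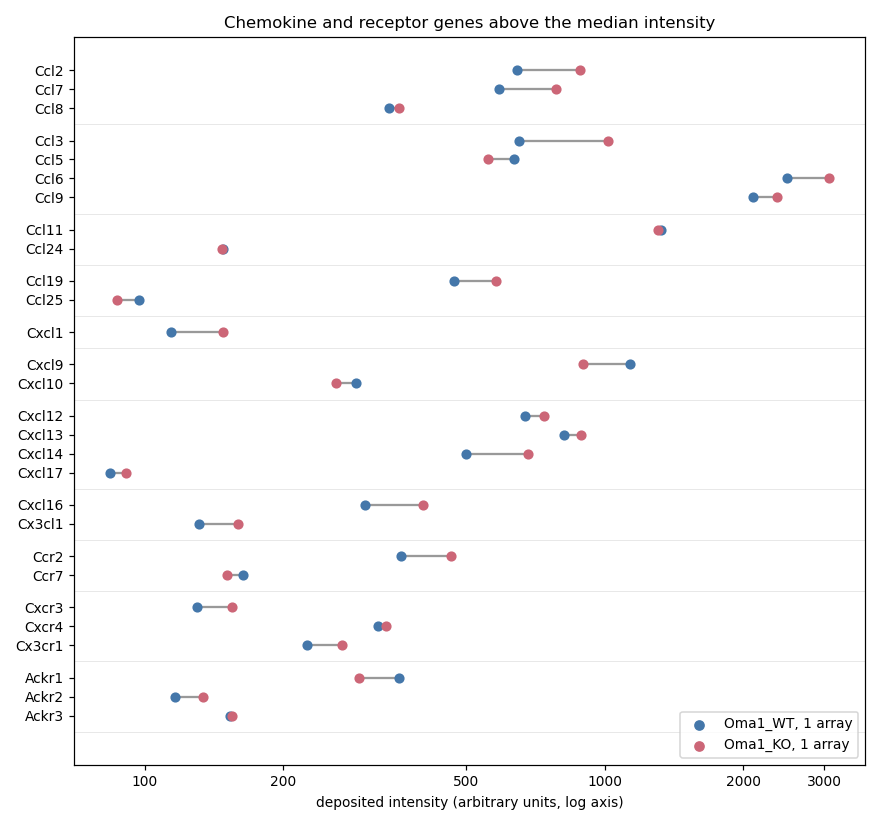
Deposited intensity (log axis, arbitrary units) of the 28 bright chemokine and receptor genes, 1 point for the Oma1_WT array and 1 for the Oma1_KO array, grouped by role. Each line joins the arrays for 1 gene, from 651 to 1015 for Ccl3 and from 1137 to 896 for Cxcl9, and positions of different genes are not comparable since each has its own probes.

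The monocyte ligands bind Ccr2, the receptor that brings monocytes out of marrow and into tissue. Ccl2, the main ligand, read 646 in Oma1_WT and 884 in Oma1_KO, a ratio of 1.37 and a difference of 0.45. Ccl7, a second ligand of the same receptor, read 588 and 782, a difference of 0.41. Ccr2 itself read 360 and 464, a difference of 0.37. All 3 were higher in Oma1_KO by more than the SD of 0.17, and of the 11394 bright genes 253, 327 and 431 had a higher difference than Ccl2, Ccl7 and Ccr2. The other genes of this group stood apart from them. Ccl8, which in the mouse binds Ccr8, read 339 and 357 (0.07), within the SD. Ccl12, another mouse ligand of Ccr2, was dim at 31 and 29.

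Markers of macrophages mostly read in the same direction as this axis. Of 9 macrophage markers 7 were higher and 2 lower, all 9 bright, with a median of 0.21, against 36.6% higher and 62.3% lower among all bright genes. Cd68, a lysosomal protein counted as higher, was nearly equal at 5616 and 5626 (0.00). Their summed intensity was 28752 in Oma1_WT and 33525 in Oma1_KO. C1qa, a complement subunit, read 2167 and 2845 (0.39) and Csf1r, the receptor of the macrophage growth factor, 2482 and 3122 (0.33). Cd163, a haemoglobin scavenger receptor, went the other way at 243 and 185 (-0.39). Only 2 of 4 listed monocyte markers were measured, Plac8 at 186 and 192 and Chil3, dim, at 29 and 25. The part of macrophage number in the ligand values was not tested.

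A further group of CC ligands acts on Ccr1 and related receptors and is made by macrophages, T cells and NK cells. Ccl3, macrophage inflammatory protein 1 alpha, had the highest difference of all members, at 651 and 1015, a ratio of 1.56 and a difference of 0.64. Of the bright genes 110 had a higher one. Ccl6 and Ccl9, macrophage ligands of Ccr1 found in rodents, read 2494 and 3078 (0.30) and 2101 and 2369 (0.17). Ccl5, which is abundant in T and NK cells, went the other way, at 636 and 557 (-0.19). Ccl4, the neighbour of Ccl3 on the chromosome, was dim at 50 and 53 (0.08). Their shared receptor Ccr1 was dim, at 43 and 30, under the level of 47.1, as was its paralog Ccr1l1 at 41 and 51, so neither gives a direction to set beside the ligands.

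Markers of T and NK cells, which are sources of Ccl5, were set beside it. Of 5 NK cell markers 4, the defining marker Ncr1 among them, lay at or under the level of 47.1 and give no direction. The other, Nkg7, a granule protein that T cells share, read 305 and 241 (-0.34). The summed intensity of the 5 was 464 in Oma1_WT and 366 in Oma1_KO. Of 7 measured T cell markers, 4 of them bright, 4 were lower and 3 higher, where 62.3% of bright genes were lower. The T cell markers had a median of -0.07, within the SD, and sums of 676 and 632. Xcl1, a ligand that NK and CD8 T cells release to attract dendritic cells, was dim at 62 and 44 (-0.49). Its receptor Xcr1, which lies outside the naming rule, was also dim, at 67 and 68. Of 8 dendritic cell markers, 6 of them bright, 5 were higher and 3 lower, where 36.6% of bright genes were higher. The dendritic cell markers had a median of 0.05 and sums of 11682 and 15595. The class II genes H2-Aa and H2-Ab1, which macrophages and B cells share, gave most of that sum. The part of these cells in the values was not tested.

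Eosinophil ligands were nearly equal. Ccl11, eotaxin, read 1324 and 1306 (-0.02) and Ccl24, its relative, 148 and 147 (-0.01), and both signs turned after quantile normalisation, to 0.01 and 0.03. Ccl26 was dim at 31 and 32. Ccr3, their receptor on eosinophils, was dim at 48 and 47. All 4 eosinophil markers were dim too, with sums of 135 and 159.

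Among ligands of lymphoid homing, Ccl19, which guides T cells and dendritic cells through Ccr7, was higher at 470.8 and 579.5 (0.30). It has 5 probe sets, which read between 443 and 483 in Oma1_WT and between 543 and 593 in Oma1_KO and 2 pairs of them gave identical values, so they are not 5 independent measurements. Ccr7 itself read 163 and 151 (-0.11), within the SD. Ccl25, a gut and thymus ligand, read 97.0 and 87.0 (-0.16). The T cell ligands Ccl1, Ccl17, Ccl20, Ccl22 and Ccl28 were dim, between 36 and 50 in Oma1_WT and between 32 and 48 in Oma1_KO. The receptors of these T cell ligands, Ccr4, Ccr6, Ccr8 and Ccr10, and Ccr9, the receptor of Ccl25, were dim as well. These receptors of T and B cell subsets read between 20 and 49 in Oma1_WT and between 20 and 51 in Oma1_KO.

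The ligands of Cxcr3, the receptor of activated T and NK cells, are induced by interferon gamma. Cxcl9 read 1137 and 896, a ratio of 0.79 and the lowest difference of the bright members (-0.34). Of the bright genes 951 had a lower one. Cxcl10 read 288 and 260 (-0.15), within the SD. Cxcl11 was dim at 44 and 57 (0.37). The receptor stood opposite to Cxcl9, with Cxcr3 at 130 and 155 (0.25). Of 15 measured interferon gamma-induced genes outside the family, 11 were lower and 4 higher, with a median of -0.21. Of the 15, 14 were bright, 13 of them in both arrays, and 62.3% of all bright genes were lower. By at least 1.5-fold 6 of the 15 were lower, where 1.4% of all genes and 1.75% of bright genes were. Gbp5, among the 6, read 118 and 64 (-0.87) and was bright through Oma1_WT alone. Gbp4, a guanylate-binding protein, read 729 and 236 (-1.62) and Iigp1, an immunity-related GTPase, 319 and 158 (-1.01). Ciita and Irf8, which also respond to the cytokine, read 158 and 201 (0.35) and 885 and 1081 (0.29). Of 13 genes induced by type I interferon 12 were lower and 1 higher, with a median of -0.15, within the SD. Of the 13, 11 were bright, where 62.3% of all bright genes were lower, and 2 lay under the level of 47.1. Ifit3 had the lowest difference of the list, at 502 and 341 (-0.56).

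The 250 bases before the annotated starts of Cxcl9 and Cxcl10 are shown with those of Ccl3, since these carry the lowest bright differences of the interferon group and the highest of the family. They are from RefSeq's GRCm38.p6, 5′ to 3′ on the gene's strand, at chr5:92328080-92328329 for Cxcl9, chr5:92348890-92349139 for Cxcl10 and chr11:83649379-83649628 for Ccl3, all on the minus strand. Capitals mark matches to any of 3 patterns on either strand.
Cxcl9: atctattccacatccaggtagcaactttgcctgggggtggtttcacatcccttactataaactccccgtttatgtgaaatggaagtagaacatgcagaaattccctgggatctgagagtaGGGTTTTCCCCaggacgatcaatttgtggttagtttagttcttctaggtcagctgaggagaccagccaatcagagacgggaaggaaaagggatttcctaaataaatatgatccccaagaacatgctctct
Cxcl10: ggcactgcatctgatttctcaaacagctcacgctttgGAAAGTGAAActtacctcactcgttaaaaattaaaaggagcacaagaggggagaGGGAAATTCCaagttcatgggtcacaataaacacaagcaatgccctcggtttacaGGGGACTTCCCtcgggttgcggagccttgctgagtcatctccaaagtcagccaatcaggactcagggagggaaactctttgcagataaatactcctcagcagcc
Ccl3: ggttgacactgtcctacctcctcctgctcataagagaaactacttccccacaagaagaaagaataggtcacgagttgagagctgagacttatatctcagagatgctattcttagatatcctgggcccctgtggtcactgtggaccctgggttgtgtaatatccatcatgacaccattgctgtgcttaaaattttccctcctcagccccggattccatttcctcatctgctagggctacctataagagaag

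The patterns were a broad form of the NF-kB site (GGG, any 5 bases, CC), a narrower form contained in it (GGG, any 3 bases, TTCC), and the core of the interferon-stimulated response element (TTTC, any 2 bases, TTTC). The interferon pattern was in 978 of 32851 promoter windows of this length (2.98%) and in 3 of the 41 member genes with an entry, Cxcl10, Ccl19 and Cxcl14. In Cxcl10 it lies from 213 to 204 bases before the start. The narrower NF-kB pattern, added after the data had been seen, was in 4.65% of all windows and in 9 of 41 member genes, Cxcl1, Cxcl2, Cxcl3, Cxcl10, Ccl1, Ccl9, Ccl20, Ccr3 and Ccr6. The broad form was in 45.8% of windows and in 25 of 41, Cxcl9 among them. Of the members with the interferon pattern, Cxcl10 was lower, though within the SD, and Ccl19 and Cxcl14 were higher. A match is a string in these windows and says nothing of binding, and the Ccl3 window held no match to any pattern.

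The neutrophil ligands act through Cxcr2. Cxcl1, the only bright one, read 114 and 148, a difference of 0.37. Cxcl2, Cxcl3, Cxcl5 and Cxcl15 were dim, between 17 and 34 in Oma1_WT and between 16 and 39 in Oma1_KO, with differences from -0.32 to 0.42, and none of them passed the level of 47.1. Cxcr2 at 22 and 24 and Cxcr1 at 40 and 46 were dim too. Of 6 neutrophil markers 4 were higher and 2 lower, with sums of 485 and 505, and 4 of the 6 were dim. Among all dim genes 60.7% were higher, and among all bright ones 36.6%. Ppbp, a platelet-derived ligand of Cxcr2 outside the naming rule, read 343 and 602 (0.81). Its relative Pf4 read 1209 and 1330 (0.14).

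The homeostatic CXC ligands were all higher, 1 of the 4 by more than the SD. Cxcl14, a ligand of epithelium and fibroblasts, read 500 and 682 (0.45). Cxcl12, which holds progenitors and lymphocytes in their niches, read 671 and 738 (0.14), and its receptors Cxcr4 and Ackr3 read 321 and 335 (0.06) and 153 and 155 (0.02). Cxcl13, the B cell attractant, read 816 and 889 (0.12). Its receptor Cxcr5 was dim at 36 and 25, under the level of 47.1. All 5 measured B cell markers were lower (median -0.51, sums of 932 and 660). Only 4 of these markers were bright, 2 of them in both arrays, and 62.3% of all bright genes were lower. Cd79a, a B cell receptor subunit, differed most, from 163 in Oma1_WT to 75 in Oma1_KO (-1.11). Like Pax5, it was bright through Oma1_WT alone, so its selection favoured a lower value in Oma1_KO. Cxcl17, a mucosal ligand, was close to the brightness limit at 84 and 91 (0.11). Of 6 fibroblast markers, all bright, 4 were lower and 2 higher (sums of 19417 and 20154), near the share of 62.3% lower among bright genes.

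Both membrane-bound ligands were higher by more than the SD. Cxcl16, which also acts as a scavenger receptor for oxidised lipoprotein, read 301 and 402 (0.42). Cxcr6, its receptor on T and NKT cells, read 60 and 85 (0.50), but its mean was under the brightness limit. The olfactory and vomeronasal receptor genes reached 0.47 at their 95th percentile. With a median intensity of 19.5 they were mostly dimmer than Cxcr6, so they are not a matched gauge for it. Cx3cl1, fractalkine, read 131 and 159 (0.28), and Cx3cr1, its receptor on monocytes and tissue macrophages, 225 and 268 (0.25).

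The atypical receptors differed among themselves. Ackr1, which carries chemokines across venular endothelium, read 356 and 292 (-0.29), and 1441 of the 11394 bright genes had a lower difference. All 7 endothelial markers, all bright, were lower as well, where 62.3% of bright genes were, with a median of -0.39 and sums of 9074 and 6996, Robo4, an endothelial guidance receptor, with 544 and 347 (-0.65). Gpr182, an endothelial receptor that binds chemokines and lies outside the naming rule, read 212 and 152 (-0.48). The part of endothelial content in the Ackr1 value was not tested. Ackr2, the scavenger of inflammatory CC chemokines, read 116 and 134 (0.21). Ackr3 was nearly equal, and Ackr4, the scavenger of Ccl19 and Ccl25, was dim at 78 and 75 (-0.06).

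**Figure D2:**
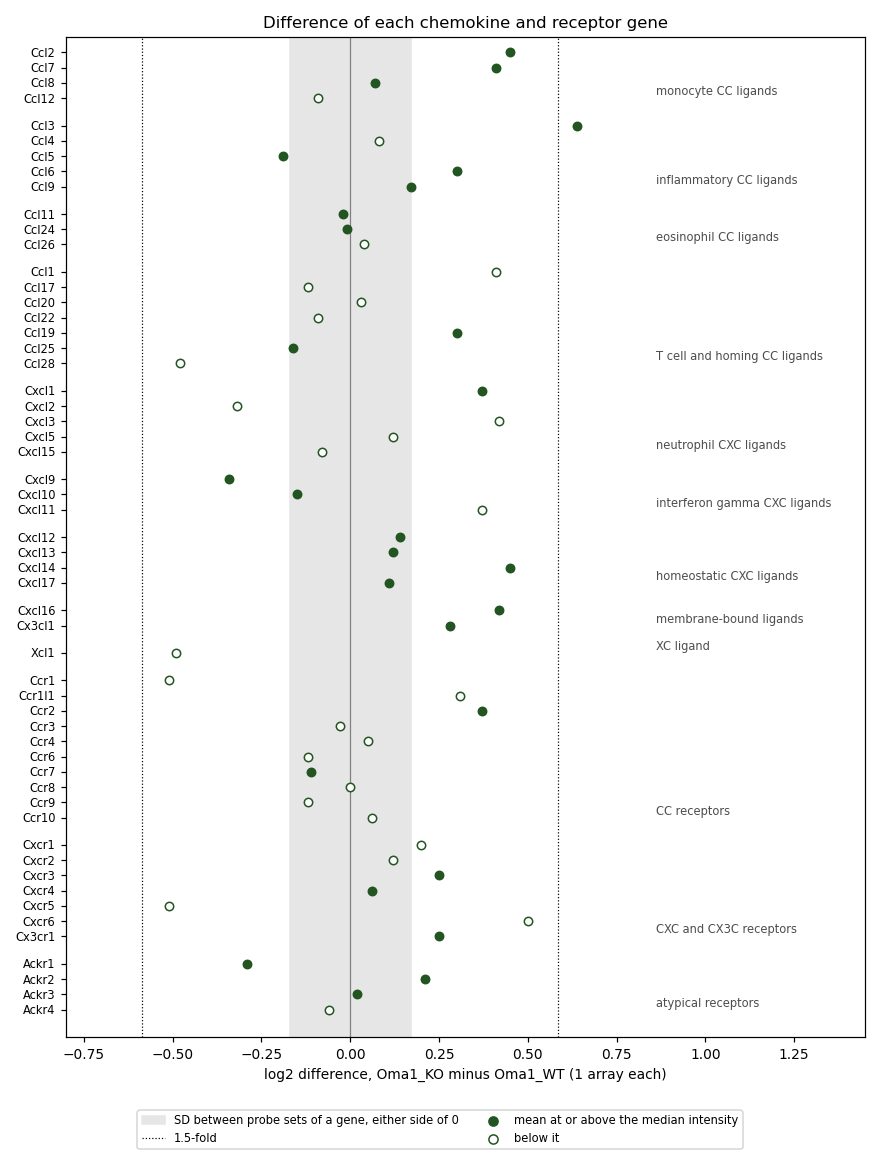
Log2 difference of each of the 55 genes, Oma1_KO minus Oma1_WT, 1 array each, ordered by role; filled points are bright genes, open points dim ones, the grey band is 0.17 (SD between probe sets) either side of 0 and the dotted lines mark 1.5-fold. Ccl3 is the one gene past a dotted line, and the filled points lie mostly to the right of 0, with Cxcl9, Ackr1 and Ccl5 left of the band.

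Counted over all 55 members, 33 were higher in Oma1_KO, 21 lower and 1 equal, with a median difference of 0.06. Among all genes 46.9% were higher and 47.9% lower. By more than 0.17, an SD measured on bright genes alone, 20 members were higher and 8 lower, while 20.2% of all genes were higher and 20.0% lower by that much. Of the 28 bright members, 20 were higher and 8 lower with a median of 0.16, against 36.6% higher and 62.3% lower among all bright genes. By more than the SD 14 were higher and 3 lower by more than the SD, against 13.5% and 27.5% of all bright genes. Of the 27 dim members 13 were higher, 13 lower and 1 equal, against 60.7% higher and 28.6% lower among all dim genes. These counts describe 2 arrays, and the members are not independent of one another.

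By class, 11 of 19 CC ligands were higher and 8 lower (median 0.04), and 9 of 13 CXC ligands were higher and 4 lower (median 0.12). The 17 signalling receptors had 10 higher, 6 lower and 1 equal, and their median of 0.06 was -0.01 after a loess correction. Only 5 of these receptors were bright, Ccr2, Ccr7, Cxcr3, Cxcr4 and Cx3cr1. Of the 34 ligands 20 were bright. Each class mixes bright and dim genes, and 36.6% of all bright genes and 60.7% of all dim ones were higher. The signalling receptors, 58.8% higher with 12 of 17 dim, were near the share of dim genes.

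**Figure D3:**
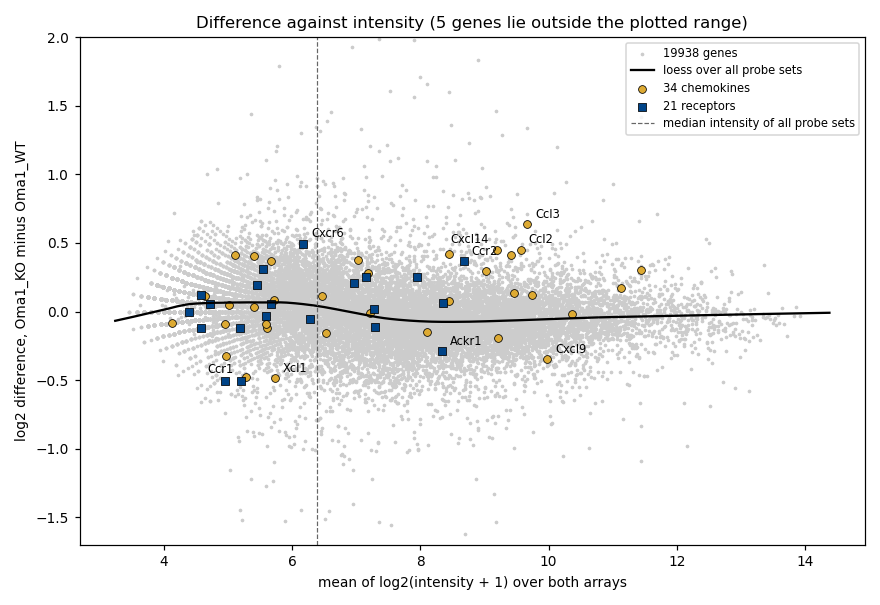
Log2 difference, Oma1_KO minus Oma1_WT, against the mean of log2(intensity + 1) over both arrays, for 19938 genes (grey), 34 chemokines and 21 receptors (marked points); the black line is a loess fit, 5 genes lie outside the plotted range, and the dashed line the median intensity of 83. The fit lies above 0 for dim genes and below 0 for most bright ones, and Ccl3, Ccl2 and Ccr2 lie above it while Cxcl9 and Ackr1 lie under it.

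Ligands were then set beside their receptors from a list of 46 known pairs, of which 40 had values for both genes, Xcl1 and Xcr1 included. Both genes were higher in 13 pairs and both lower in 7, and in 20 they were opposite or one was equal. Of the 14 pairs with both genes bright, 7 were higher in both, 1 was lower in both and 6 were opposite. The 7 were Ccl2 and Ccl7 with Ccr2, Cxcl12 with Cxcr4 and with Ackr3, Cx3cl1 with Cx3cr1, and Ccl2 and Ccl3 with Ackr2. Ccl5 and Ackr1 were lower together. Opposite pairs were Cxcl9 and Cxcl10 with Cxcr3, Ccl19 with Ccr7, Ccl2 and Cxcl1 with Ackr1, and Ccl5 with Ackr2. Pairs share genes, so they are not independent counts. Many of the 40 pairs hold a dim gene, such as Ccr1, which gives no direction. Since 20 of the 28 bright members were higher, bright pairs higher in both would be common under any pairing.

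**Figure D4:**
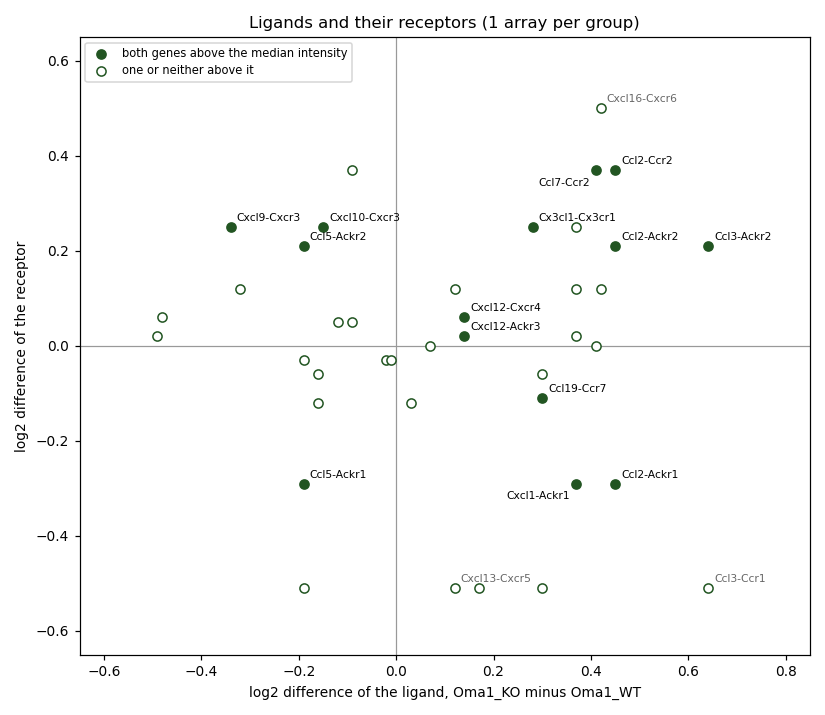
Log2 difference of a ligand (horizontal axis) against that of its receptor (vertical axis), Oma1_KO minus Oma1_WT, for 40 pairs; filled points have both genes bright, open points do not. The upper right holds 7 filled points, and the points of Cxcl9 and Cxcl10 with Cxcr3 lie in the upper left.

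Neighbouring chemokine genes did not all share a direction. In RefSeq's order on one chromosome, Ccl2, Ccl7, Ccl11, Ccl12, Ccl8 and Ccl1 had differences of 0.45, 0.41, -0.02, -0.09, 0.07 and 0.41. The next members along it, Ccl5, Ccl9, Ccl6, Ccl3 and Ccl4, had -0.19, 0.17, 0.30, 0.64 and 0.08. Ccl12, Ccl1 and Ccl4 of these were dim. In the receptor cluster on another chromosome, Ccr9, Cxcr6, Ccr1, Ccr1l1, Ccr3 and Ccr2 had differences of -0.12, 0.50, -0.51, 0.31, -0.03 and 0.37, and of these Ccr2 was bright.

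Other parts of the chemokine response were measured from lists of genes outside the family. Of 36 signalling genes, all bright, 15 were higher, 20 lower and 1 equal, 0 of them by 1.5-fold, with a median of -0.01. That is near the shares among all bright genes, 36.6% higher and 62.3% lower. The 4 with the largest differences were all higher. Pik3r5, the adaptor of PI3K gamma, read 374 and 506 (0.44), Rgs1, which shortens G protein signals, 419 and 556 (0.41), Rgs18, a regulator in myeloid cells and platelets, 489 and 636 (0.38), and Arrb2, an arrestin, 571 and 702 (0.30). Of 16 adhesion and homing genes 9 were higher, 6 lower and 1 equal (median 0.02), Selplg, the selectin ligand of leukocytes, with 943 and 1263 (0.42). Of 17 NF-kB-induced genes 13 were higher and 4 lower, with 0 past 1.5-fold (median 0.12). Tnf read 106 and 139 (0.39) and Vcam1, an endothelial adhesion molecule, 383 and 453 (0.24). Il1b, dim at 56 and 43 (-0.37), went the other way. In the last 2 lists 15 of 16 and 13 of 17 genes were bright. Of all bright genes 36.6% were higher and of all dim ones 60.7%. Both medians were smaller than the SD, which is for single probe sets and is no gauge of a list's median.

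Proteins that bind or trim chemokines also differed in direction. Of 16 genes of heparan sulphate, on which chemokines are held, 7 were higher and 9 lower (median -0.04), also near the shares among bright genes, the proteoglycan cores Sdc4 and Sdc3 with 524 and 750 (0.52) and 766 and 1058 (0.47), and the sulphatase Sulf1 with 462 and 334 (-0.47). Of 15 chemokine-related genes outside the rule, 13 of them bright, 9 were higher, 5 lower and 1 equal (median 0.01). Among all bright genes 36.6% were higher. Dpp4, a protease that cuts the ends of several chemokines, read 529 and 362 (-0.55), and Cmklr1, the chemerin receptor, 1961 and 1541 (-0.35).

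**Figure D5:**
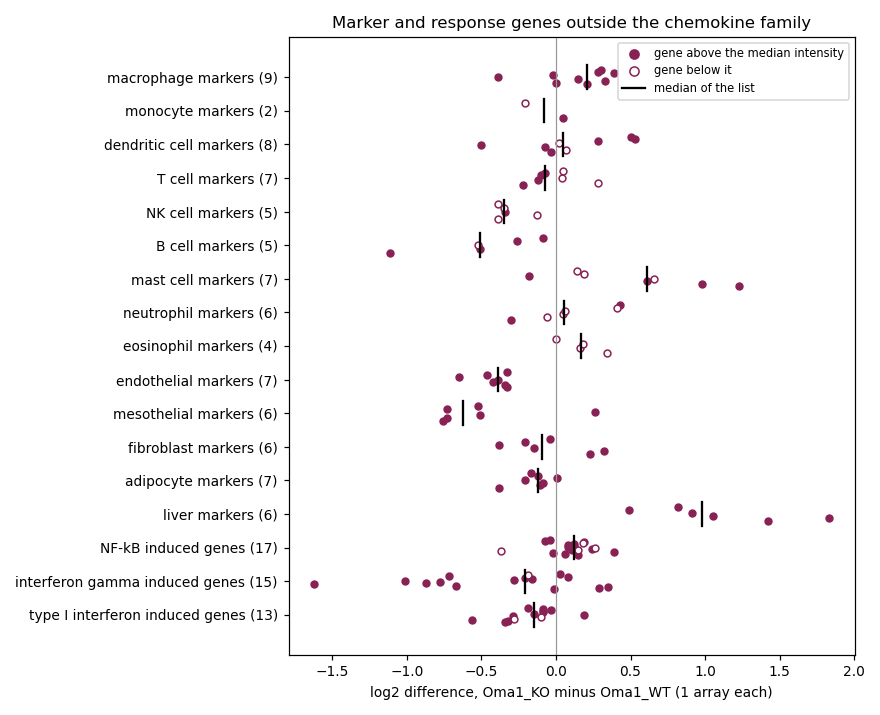
Log2 difference, Oma1_KO minus Oma1_WT, 1 array each, of marker and response genes outside the family, 1 row per list with the number of genes in brackets; filled points are bright genes, open points dim ones and the black bar is the list's median. Macrophage (0.21), mast cell (0.61) and liver (0.98) medians lie to the right of 0, and endothelial (-0.39), B cell (-0.51) and interferon gamma (-0.21) medians to the left.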

How the data were processed

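White adipose RNA of 1 Oma1_WT and 1 Oma1_KO mouse sample was extracted with Trizol and turned into biotinylated cRNA, per the labels' protocols, and read on Mouse Gene 1.0 ST arrays. The authors deposited 1 linear intensity per probe set and array, rounded to whole numbers, from 8 to 21216 and from 8 to 21365. The sources used here do not name the software, background correction, probe summary or scaling, and no detection call was used. Both medians were 83 and the upper quartiles 335 and 318, so the arrays had not been made equal in distribution.

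Of 35512 probe sets, 21789 had 1 gene symbol in GEO's platform annotation and 1621 had several; the latter and those with none gave no gene value. Values were taken as log2(intensity + 1) and averaged over the probe sets of a gene, and no scaling was added. Counts cover all members, dim ones included. Members, lists and settings were chosen with earlier results of these data known. All 55 members matched RefSeq's gene table by symbol. By rule, bright members were named with values and dim ones in groups with their range, and of each outside list up to 4 bright genes with the largest differences could be named. Values of single dim members lie outside that rule and were chosen after they were seen. The same holds for Cd68, Chil3, Ciita, Cma1, Fcer1a, Il1b, Irf8, Ms4a2, Ncr1, Pf4, Wt1 and Xcr1. The 8 alternatives were quantile normalisation, loess (fraction 0.2), centring, the brightest probe set, a pseudocount of 16 and 3 intensity filters. The steps were tested on simulated data with known fold changes. Protein features were not analysed here. Python 3.11.15, numpy 2.4.6, pandas 2.3.3, statsmodels 0.14.6 and matplotlib 3.10.9 were used.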

Additional observations from a re-analysis of the deposited data

How the results depend on the processing

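No replicate could be left out, and no paired analysis was possible because each genotype had 1 array. Across the 8 alternatives the count of members at least 1.5-fold higher was 1 (Ccl3, from 0.63 to 0.70) and that of members at least 1.5-fold lower was 0. Members higher and lower, 33 and 21, were 20 and 8 with bright genes alone, whether by the mean or in both arrays, and the lower count was 13 with genes above the olfactory receptor level; fewer genes are counted under these filters. With bright genes alone the signalling receptor median, 0.06, was 0.25, and the pairs in one direction, 20, were 8. Of the 28 bright members 26 kept their sign after quantile normalisation, loess and a pseudocount of 16, the exceptions being Ccl11 and Ccl24 after the first 2. The other alternatives do not test a gene's sign: filters leave its value as it is, centring subtracted nothing, and the brightest probe set can alter only Ccl19 and Ccl25. For dim genes, rounding to whole intensities and the absence of a detection call limit what a difference can show.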

Other observations

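Probe sets annotated with several copies of a chemokine gene entered no gene value. The 4 probe sets shared by the Ccl21 copies, ligands of Ccr7 from lymphatic endothelium, each read 900 in Oma1_WT and 755 in Oma1_KO, a difference of -0.25. Of the 3 shared by the Ccl27 copies, 2 read 282 and 249 (-0.18) and 1 read 362 and 332 (-0.12). Both sets were lower in Oma1_KO, opposite to Ccl19 (0.30), the other ligand of Ccr7. Which copies gave the signal cannot be told from these probe sets.

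Of 7 mast cell markers 6 were higher in Oma1_KO and 1 lower (median 0.61, sums of 1013 and 1719). Of the 7, 4 were bright, and 36.6% of all bright genes and 60.7% of all dim ones were higher. Cpa3, Mcpt4, Tpsb2 and Cma1 were higher by at least 1.5-fold, where 1.15% of all genes were. Cma1 was dim at 42 and 67. Fcer1a and Ms4a2, counted as higher, lay under the level of 47.1 and give no direction. Cpa3, a granule protease, read 282 and 663 (1.23). Kit, the stem cell factor receptor, went the other way at 212 and 187 (-0.18). Mesothelial markers, all bright, were lower in 5 of 6 genes (median -0.62, sums of 2098 and 1415), where 62.3% of bright genes were lower. Upk3b read 773 and 455 (-0.76), and Wt1 was higher at 178 and 214 (0.26). The part of these cells in the chemokine values was not tested.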
